A study of Mus musculus with 62 samples.

Results

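The 10 genes described here encode proteins of the secondary and tertiary granules of neutrophils: Ngp, Camp, Ltf, Lcn2, Cd177, Olfm4, Mmp8, Retnlg, Mmp9 and Pglyrp1. They were taken by name from a table of 37620 genes, and every one of the 10 has a row. Neutrophils fill their granules in sequence as they mature. Primary granules with myeloperoxidase and serine proteases are made first, in promyelocytes. Secondary granules with lactoferrin, cathelicidin and lipocalin come next, in myelocytes, and tertiary granules rich in gelatinase come last. The transcription factor C/EBP-epsilon is needed for the secondary stage. These genes are generally taken as neutrophil genes, although monocytes and their precursors can also carry some of their RNA.

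RNA was sequenced in bulk from 62 mouse libraries. Of these, 48 came from 24 clones of ER-Hoxb8 cells, bone marrow granulocyte-monocyte progenitors immortalised with an estrogen-regulated form of Hoxb8 and kept in medium with serum and stem cell factor. Each clone gave 1 library of monocytic cells and 1 of progenitors, so that no clone has a replicate within a state. The other 14 libraries were primary mouse monocytes sorted from bone marrow, 2 each of nonclassical, intermediate and classical monocytes and of class 4, class 3, class 2 and class 1. The labels do not say how the monocytic state was reached. They give no genotype, age, sex, sorting gate or definition of the classes, nor whether replicates came from separate animals, so p-values measure the spread between these libraries. Total counts were 1.83 to 9.12 M in the monocytic libraries of clones 15 to 25 and 22.9 to 34.5 M in those of clones 1 to 13. In progenitors they were 0.362 to 16.5 M in clones 15 to 25, the lowest being clone 21, and 12.6 to 47.3 M in clones 1 to 13. Primary libraries held 21.2 to 35 M.

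Levels are counts scaled to a common library size (CPM) and adjusted by TMM factors over all 62 libraries. Because the libraries are bulk RNA, fewer cells of a type and less RNA per cell cannot be told apart. Markers were checked in each group. The summed level of 8 monocyte markers was 1000 to 6540 CPM in monocytic clones and 1070 to 2850 CPM in progenitor clones. It was 12700 to 14800 CPM in classical monocytes and classes 1 to 3, but 3540 to 4500 CPM in nonclassical and intermediate monocytes and class 4. Ly6g, the defining surface marker of mouse neutrophils, was at most 12.4 CPM in monocytic clones (median 2.26) and at most 0.112 CPM in progenitors. The sum of 10 neutrophil markers, Ly6g among them, was 359 to 138000 CPM in monocytic clones (median 47600). In progenitors that sum was 31.6 to 7010 CPM (median 65.5). It rests mostly on S100a9, S100a8 and Stfa1. Their average log2 CPM over the clone libraries was 13.82, 13.26 and 11.02, against at most 8.21 for the other tested markers of this list.

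The promoters of these genes are shown because the members move together below. RefSeq windows of GRCm38.p6 held 9 of the 10 genes. Printed, 5′ to 3′ on the gene's strand, are the 250 bases before the RefSeq start of Ngp, Camp, Ltf and Lcn2, whose monocytic levels were tightly correlated over both clone sets pooled, and of Mmp8, which varied apart from them among progenitors. They lie at chr9:110419558-110419807 (plus strand), chr9:109849457-109849706 (minus), chr9:111019042-111019291 (plus), chr2:32387740-32387989 (minus) and chr9:7558179-7558428 (plus). RefSeq's start lies inside the outermost GENCODE bound of the gene by 61 bases for Ngp, 161 for Camp, 21 for Ltf and 513 for Lcn2, so the Lcn2 window is wholly within the GENCODE gene. Capitals mark matches, on either strand, to the C/EBP motif TTGCNNAA and to the PU.1 motif GAGGAA, the binding cores of the 2 factor families that drive granulocyte genes.
Ngp: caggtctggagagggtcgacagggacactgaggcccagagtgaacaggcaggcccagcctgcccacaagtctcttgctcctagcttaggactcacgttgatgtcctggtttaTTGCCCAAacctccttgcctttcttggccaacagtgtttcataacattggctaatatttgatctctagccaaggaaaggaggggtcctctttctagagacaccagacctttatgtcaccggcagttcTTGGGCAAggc
Camp: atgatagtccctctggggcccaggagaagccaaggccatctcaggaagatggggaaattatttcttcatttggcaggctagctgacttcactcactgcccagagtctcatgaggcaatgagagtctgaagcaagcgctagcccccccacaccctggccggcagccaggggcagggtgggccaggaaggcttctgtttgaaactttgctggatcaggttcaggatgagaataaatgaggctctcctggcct
Ltf: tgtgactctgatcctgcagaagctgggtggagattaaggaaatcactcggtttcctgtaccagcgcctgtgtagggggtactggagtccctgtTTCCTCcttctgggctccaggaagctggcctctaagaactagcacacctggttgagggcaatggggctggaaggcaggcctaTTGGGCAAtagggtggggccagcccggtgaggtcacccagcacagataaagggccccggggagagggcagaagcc
Lcn2: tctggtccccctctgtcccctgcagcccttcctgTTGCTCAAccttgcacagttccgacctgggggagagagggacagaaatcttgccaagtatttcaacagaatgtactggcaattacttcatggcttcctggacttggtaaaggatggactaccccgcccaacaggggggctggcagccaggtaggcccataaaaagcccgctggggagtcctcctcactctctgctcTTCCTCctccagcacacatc
Mmp8: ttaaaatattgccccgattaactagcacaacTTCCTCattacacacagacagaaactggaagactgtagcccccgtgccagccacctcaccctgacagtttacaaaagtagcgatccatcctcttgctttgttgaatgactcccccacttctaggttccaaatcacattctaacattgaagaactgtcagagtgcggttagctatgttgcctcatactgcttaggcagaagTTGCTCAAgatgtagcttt

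The C/EBP motif was present in 5 of the 9 windows, those of Ngp, Ltf, Lcn2, Mmp8 and Retnlg, against 9.56% of 32851 windows of the same length. Ngp held 2 matches, at 138 to 131 and at 11 to 4 bases before the RefSeq start, the second of them inside the GENCODE gene. The PU.1 motif was present in 6 of the 9, in Ltf, Lcn2, Cd177, Olfm4, Mmp8 and Pglyrp1, against 23.3% of all windows. RefSeq's start lies 16221 bases inside the outermost GENCODE bound for Olfm4 and 13359 for Pglyrp1, so these windows are wholly within the GENCODE genes. The TATA box TATAAA was found in Cd177 alone, against 12.4% of all windows. The Camp window matched none of these letters. A match is a description of the sequence and not a measured binding site. By the GENCODE annotation (GRCm38), Ngp (chr9:110419747-110423012), Camp (chr9:109847379-109849617) and Ltf (chr9:111019271-111042767) are near one another on chromosome 9. No exon of 9 members overlaps an exon of another gene, and 153 exonic bases of Olfm4 also belong to Gm6999 on the same strand.

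All 10 granule genes rose between the progenitor and the monocytic state of the clones. The log2 fold change (monocytic over progenitor, edgeR with the clone as a block) had a median of 8.57 over the members, against -0.02 over all genes tested. Among 11614 genes, 38.5% rose past the adjusted p threshold of 0.05, so the count of 10 is best read with the sizes: 3.75% of genes rose past the threshold with a log2 change of at least 4, and 9 of the 10 members did. The adjusted p of the members ran from 8.75e-14 to 6.57e-09.

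Ngp, a cathelin-related granule protein, was at 25.3 to 45100 CPM in monocytic clones (median 8610), against 0 to 935 CPM in progenitors (median 1.94). Monocytic libraries lay above their own progenitors in 24 of 24 clones, which 12.6% of all genes did, although the ranges of the states overlap. The log2 change was 9.89 (SE 1.06, adjusted p 2.27e-09).

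Camp, the precursor of the antimicrobial peptide cathelicidin, was at 0.991 to 7180 CPM in monocytic clones (median 1280), against 0 to 140 CPM in progenitors (median 0.226). Ltf, the iron-binding lactoferrin, was at 0.248 to 17700 CPM in monocytic clones (median 5230), against 0 to 690 CPM in progenitors (median 0.635). Both were higher in 24 of 24 clones, with log2 changes of 9.67 (SE 0.948) for Camp and 9.54 (SE 1.08) for Ltf. Clone 22 is not resolved for Ltf, with 1 count in the monocytic library (0.248 CPM) against 2 in the deeper progenitor library (0.107 CPM). Camp counts of that clone were 4 and 0 in the same order. Lcn2, a lipocalin that binds bacterial siderophores, was at 65.4 to 8380 CPM in monocytic clones (median 3030), against 1.44 to 450 CPM in progenitors (median 20.6). Unlike those 3 genes it had counts in every progenitor library, and its log2 change was 6.91 (SE 0.778).

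Olfm4, an olfactomedin found in the secondary granules of only some neutrophils, was at 0.495 to 3910 CPM in monocytic clones (median 706), against 0 to 37.3 CPM in progenitors (median 0.0741). Cd177, a membrane-anchored protein of granules and cell surface, was at 0.462 to 1260 CPM in monocytic clones (median 132), against 0 to 6.49 CPM in progenitors (median 0.0566). The log2 changes were 9.35 (SE 0.933) for Olfm4 and 8.65 (SE 0.557) for Cd177, and both were higher in 24 of 24 clones. The lowest monocytic levels, in clone 22 for Olfm4 and clone 23 for Cd177, are near the counting floor. Pglyrp1, which binds bacterial peptidoglycan, was at 14.8 to 2740 CPM in monocytic clones (median 761), against 3.26 to 257 CPM in progenitors (median 15.6), a log2 change of 5.04 (SE 0.417).

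Among the tertiary granule genes and the collagenase, Mmp9 (gelatinase B) was at 0.495 to 2140 CPM in monocytic clones (median 358), against 0 to 16.7 CPM in progenitors (median 0.0638). Retnlg, a resistin-like secreted protein, was at 0 to 1470 CPM in monocytic clones (median 250), against 0 to 34.3 CPM in progenitors (median 0.0644). The log2 changes were 8.49 (SE 0.714) for Mmp9 and 8.18 (SE 0.795) for Retnlg, which was higher in 23 clones and at 0 in both states of the other. Mmp8, the neutrophil collagenase, differed from these. It was at 11.4 to 2240 CPM in monocytic clones (median 358), against 2.57 to 210 CPM in progenitors (median 29.6), so it was already present in every progenitor library. Its log2 change of 3.24 (SE 0.339) was the smallest of the 10, and 2 clones ran the other way.

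Per kilobase of exon, the mean level in monocytic clones was highest for Ngp (9490 CPM per kb), then Camp (2340), Ltf (1650) and Lcn2 (1200), and lowest for Cd177 (62.2 CPM per kb). In progenitors the order was Ngp (61.4 CPM per kb), Lcn2 (20.8), Pglyrp1 (17.8) and Mmp8 (17.4), with Cd177 again last (0.25 CPM per kb). The 10 genes together took 0.0329 to 6.17% of all counts in monocytic libraries (median 1.81%), against 0.0033 to 0.326% in progenitors (median 0.0119%). The extremes were clones 22 and 9 among monocytic libraries, and clones 9 and 20 among progenitors.

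**Figure D1:**
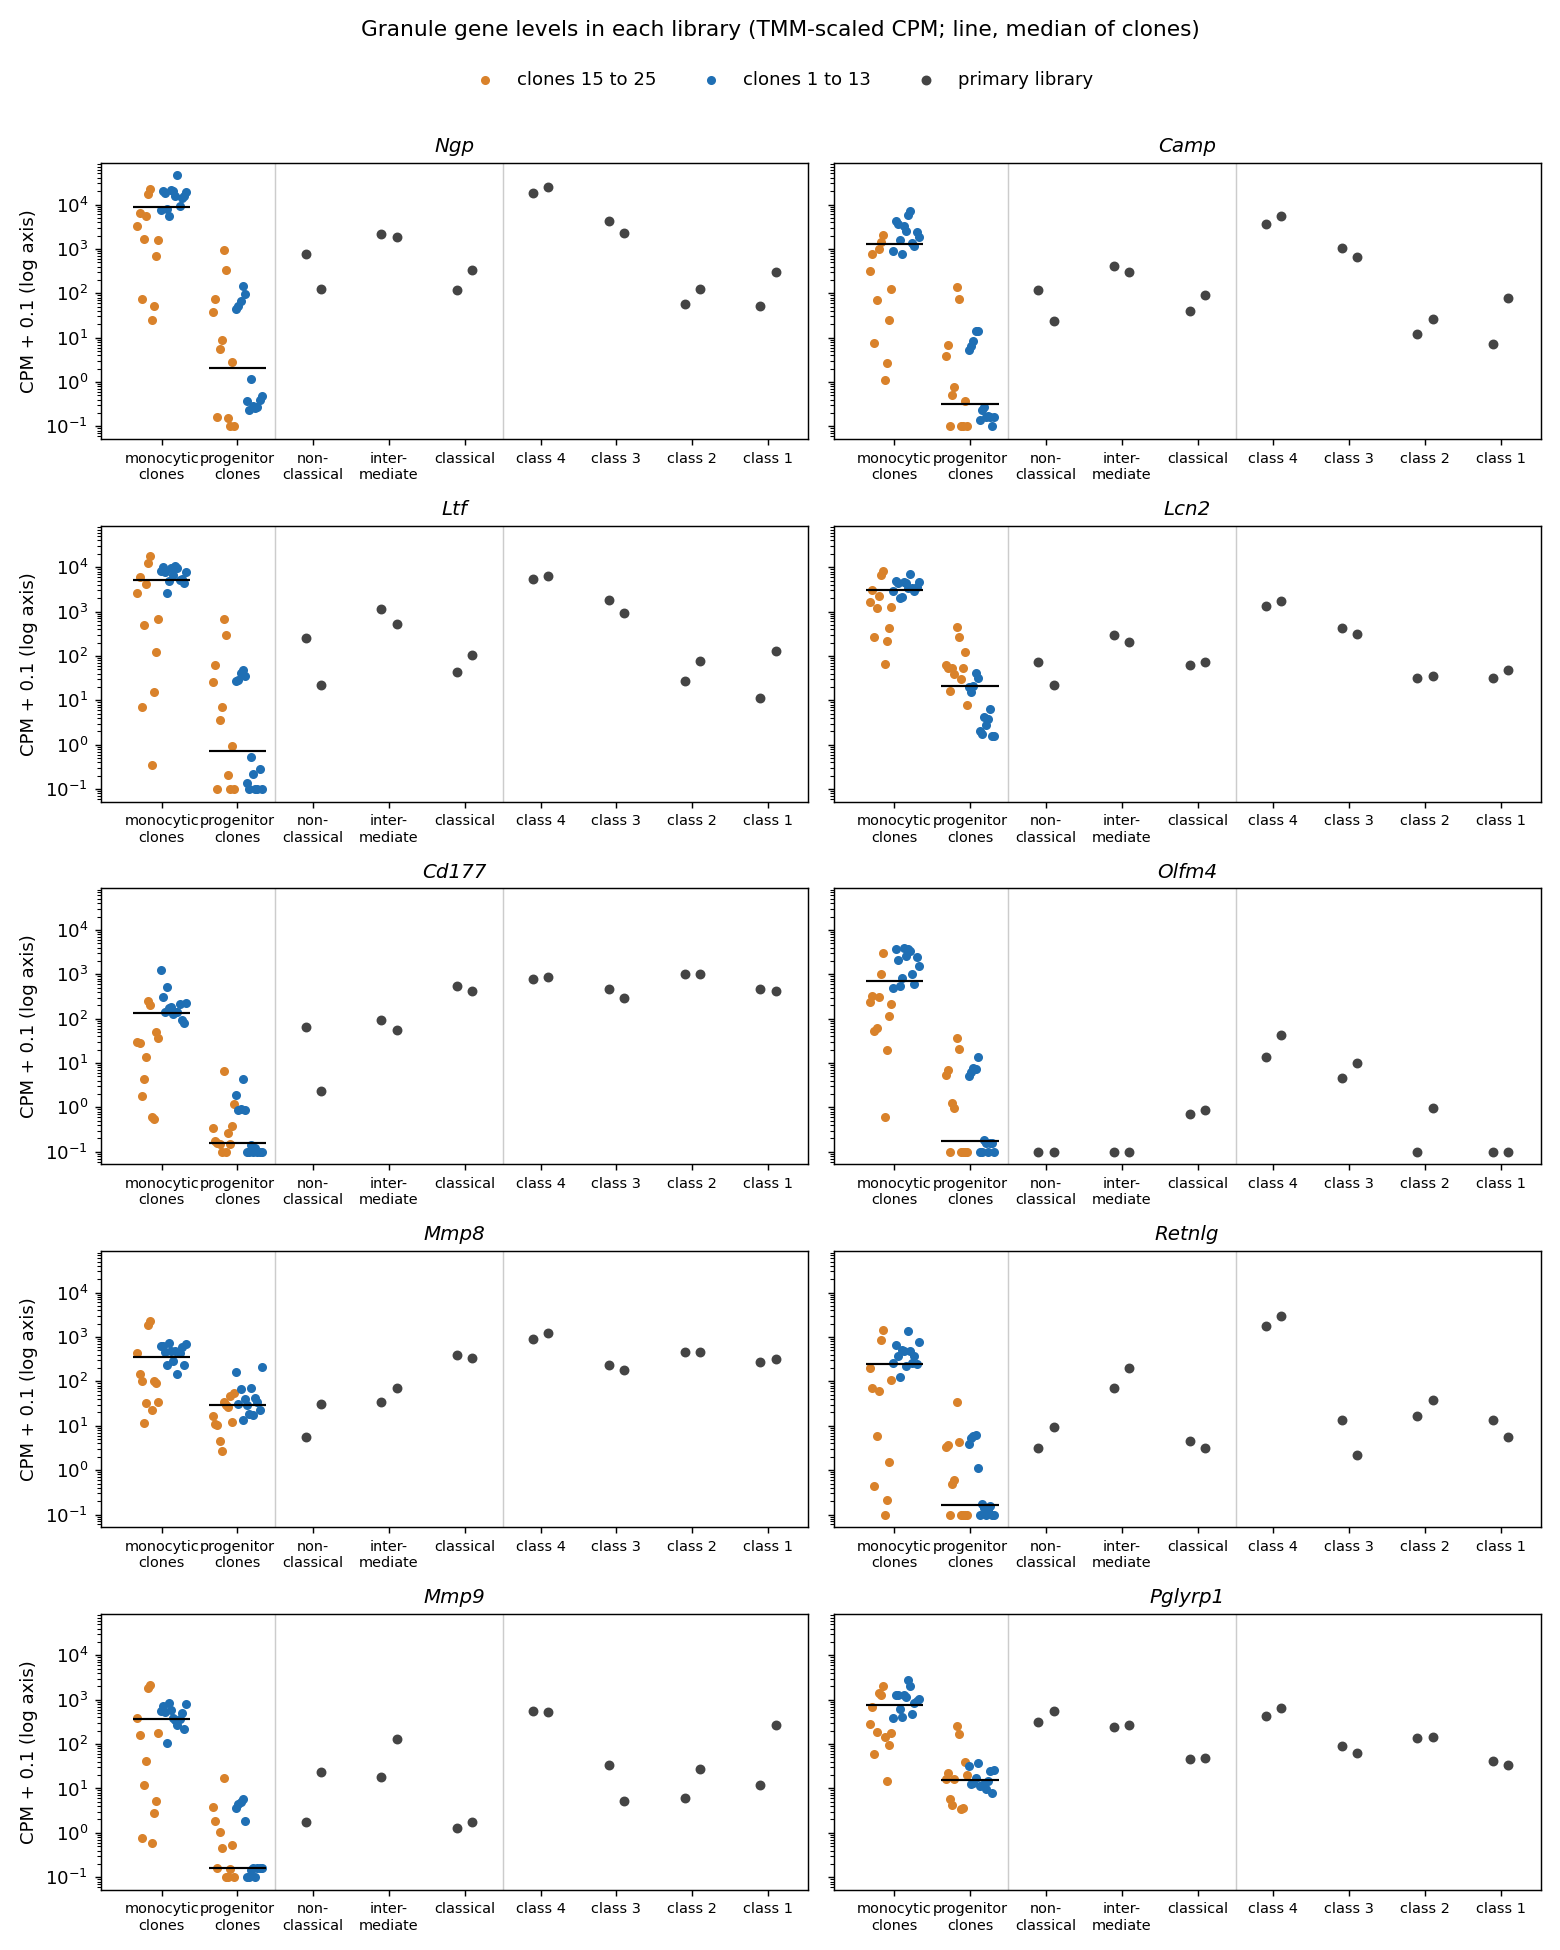
Each panel plots 1 granule gene, with 1 point a library: TMM-scaled CPM plus 0.1 on a log axis, for monocytic and progenitor clones (orange, clones 15 to 25; blue, clones 1 to 13; line, median) and for primary monocyte groups of 2 libraries (grey). The median of monocytic clones is above that of progenitors for every gene, by least for Mmp8 (358 against 29.6 CPM), and among primary groups class 4 is highest for Ngp (18500 and 24500 CPM) while class 2 is highest for Cd177 (1030 and 994 CPM).

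A broader list of 30 other genes linked to secondary and tertiary granules also rose. Of these, 26 were tested and all 26 rose (median log2 change 4.21), where 38.5% of all genes did. The list goes beyond granule contents, as Rab27a, Unc13d and Ltb4r1 are in it, and is not particular to neutrophils. Its sum was 46600 to 52800 CPM in classical monocytes, against 6780 to 75300 CPM in monocytic clones. That sum leans on the lysozyme gene Lyz2. Its average log2 CPM was 14.12 over nonclassical, intermediate and classical libraries and 13.79 over clone libraries, against at most 10.73 and 10.69 for the other tested genes. The largest changes were those of the chitinase-like Chi3l3 (10.01), whose near-identical copies can share reads, Cybb (8.6), a subunit of the NADPH oxidase, Chi3l1 (8.16) and the ficolin Fcnb (8.03). Primary granule genes did not stand out. Of 10, 3 were higher and 3 lower (median 0.18), where 4476 of 11614 genes rose and 4656 fell. Elane, neutrophil elastase, rose by 4.61, while cathepsin G (Ctsg, -3.41), myeloperoxidase (Mpo, -1.91) and the proteoglycan Srgn (-1.73) fell, and Prtn3 did not pass (0.12, adjusted p 0.847 by edgeR).

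Of 20 regulators tied to granule genes, 13 rose and 6 fell (median 1.77), where 4476 of 11614 genes rose and 4656 fell. Cebpe, which encodes C/EBP-epsilon, rose by 4.94 (SE 0.453), with 12.9 to 834 CPM in monocytic clones (median 340), against 1.88 to 93.2 CPM in progenitors (median 6.7). Klf5 (5.41) and Egr2 (3.15) also rose and Gata2 (-4.46) fell. Gfi1, a repressor needed for neutrophil development, did not pass (-0.49, adjusted p 0.112 by edgeR). Of 21 genes of neutrophil maturation, 17 were tested and all 17 rose (median 6.21), led by the calprotectin subunits S100a8 (10.06) and S100a9 (9.94), the cystatin Stfa1 (9.53), which shares reads with near-identical copies, and the formyl peptide receptor Fpr1 (8.9).

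Marker lists of whole cell types moved as follows, where 4476 of all 11614 genes rose and 4656 fell. Neutrophil markers rose in 9 of 9 tested and monocyte markers in 6 of 8, with 1 lower. Macrophage markers rose in 3 of 3 tested and eosinophil markers in 1 of 2. All 5 progenitor markers and all 4 tested markers of basophils and mast cells fell, as did the single tested gene of the B cell, T and NK cell and dendritic lists, and no erythroid marker was tested. Summed neutrophil markers, several of which are also in the maturation list, were 359 to 138000 CPM in monocytic clones and 31.6 to 7010 CPM in progenitors. Their part in the members' change was not tested.

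The change differed between the clone sets. Clones 15 to 25 gained less than clones 1 to 13 for 8 of 10 members, where 17.3% of genes were lower in this test and the median of all genes was -0.11. Ngp changed by a log2 value of 7.8 (SE 1.2) in clones 15 to 25, against 13.09 (SE 1.47) in clones 1 to 13. That difference was -5.29 (adjusted p 0.0339). Lcn2 changed by 4.28 (SE 0.645) in clones 15 to 25, against 9.3 (SE 0.713) in clones 1 to 13, a difference of -5.01 (adjusted p 0.000194). Camp (-4.84), Ltf (-5.64), Cd177 (-3.44), Olfm4 (-4.4), Retnlg (-3.82) and Pglyrp1 (-2.06) passed too. Mmp8 (-0.38, adjusted p 0.704) and Mmp9 (-3.07, adjusted p 0.0544) did not, and Mmp9 passed without clone 21 (adjusted p 0.0363).

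Other lists moved with the members in this test. Neutrophil markers were lower in 3 of 9 tested (median -3.01) and neutrophil maturation genes in 7 of 17 (median -2.11). In the broader granule list 10 of 26 were lower (median -1.23), where 17.3% of all genes were. The part of these lists was not tested.

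Both states entered this difference. Monocytic Ngp was at 25.3 to 22400 CPM in clones 15 to 25 (median 1650), against 5520 to 45100 CPM in clones 1 to 13 (median 15600). Progenitor Lcn2 was at 7.85 to 450 CPM in clones 15 to 25 (median 52.6), against 1.44 to 40.8 CPM in clones 1 to 13 (median 4.02). The sets also differ in depth, as given above, and the labels name no batch, so the set and its depth cannot be told apart.

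**Figure D2:**
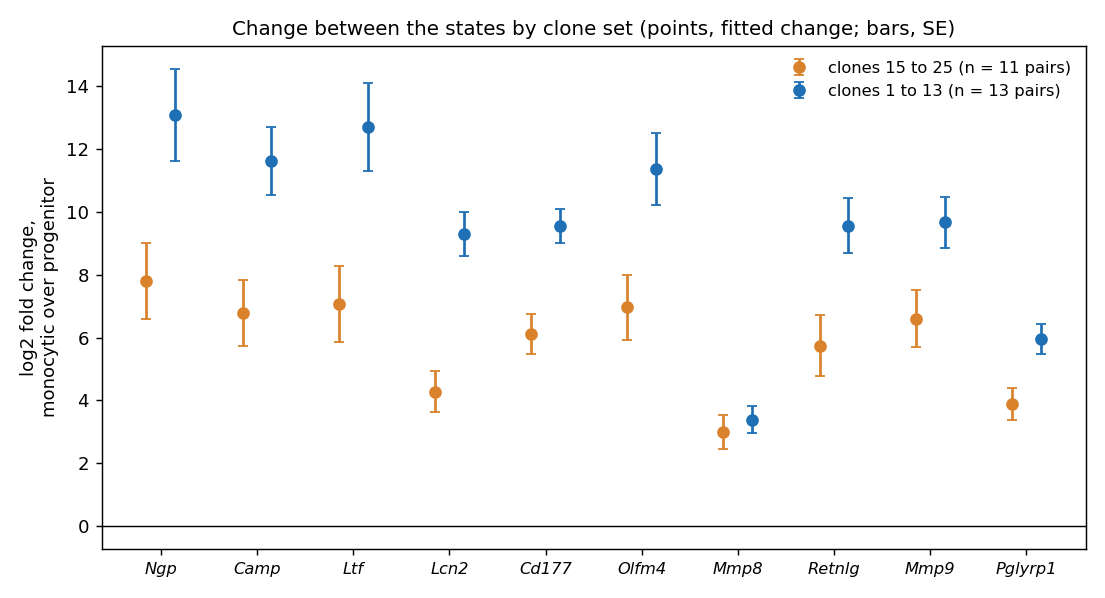
The vertical axis is the log2 fold change of monocytic over progenitor cells, fitted for clones 15 to 25 (orange, 11 pairs) and clones 1 to 13 (blue, 13 pairs), with bars of 1 SE, for each granule gene. The orange points lie below the blue ones for every gene, with a difference of -5.29 for Ngp and -0.38 for Mmp8.

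Clones differed from one another beyond their state for 6 of 10 members, where 11.7% of genes passed. They were Camp, Cd177, Mmp8, Retnlg, Mmp9 and Pglyrp1 (edgeR, adjusted p 0.00346 to 0.0407, all clone terms together). Any difference between the clone sets, with their depth, is part of these clone terms, because no set term was fitted. Within clones 1 to 13 alone, 0 of 10 passed by edgeR, and 2 had an unadjusted p under 0.05. That fit called 0.299% of all genes, so its count says little about the members.

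Some levels fell into separate clusters, that is, groups of at least 3 clones parted by a gap of over 2 log2 units. Progenitor Ngp was high in 9 clones, numbers 1 to 5, 15, 16, 20 and 21, and low in 15, and progenitor Camp split the same clones. Progenitor Olfm4 was high in 11 clones, these 9 and clones 18 and 19. Among monocytic libraries, Ngp and Ltf were low in clones 17, 22 and 23 and high in the other 21, and Retnlg was low in those 3 and in clones 18 and 24. Summed monocyte markers of the 3 low clones were 4500, 2160 and 4640 CPM, against 1670, 2850 and 2590 CPM in their own progenitor libraries, so clone 22 was lower. Their summed neutrophil markers were 2130, 359 and 1940 CPM. Clone 22 also had the highest sum of progenitor markers among monocytic libraries (1030 CPM, median 275). Clones 20 and 21 had the highest progenitor levels of Ngp, Ltf and Lcn2, with neutrophil markers of 7010 and 5180 CPM against 31.6 to 693 CPM in the other progenitors. Monocyte markers of these 2 clones were 1190 and 1000 CPM in the monocytic libraries, against 1240 and 1420 CPM in their progenitors. The part of these markers in the levels was not tested.

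**Figure D3:**
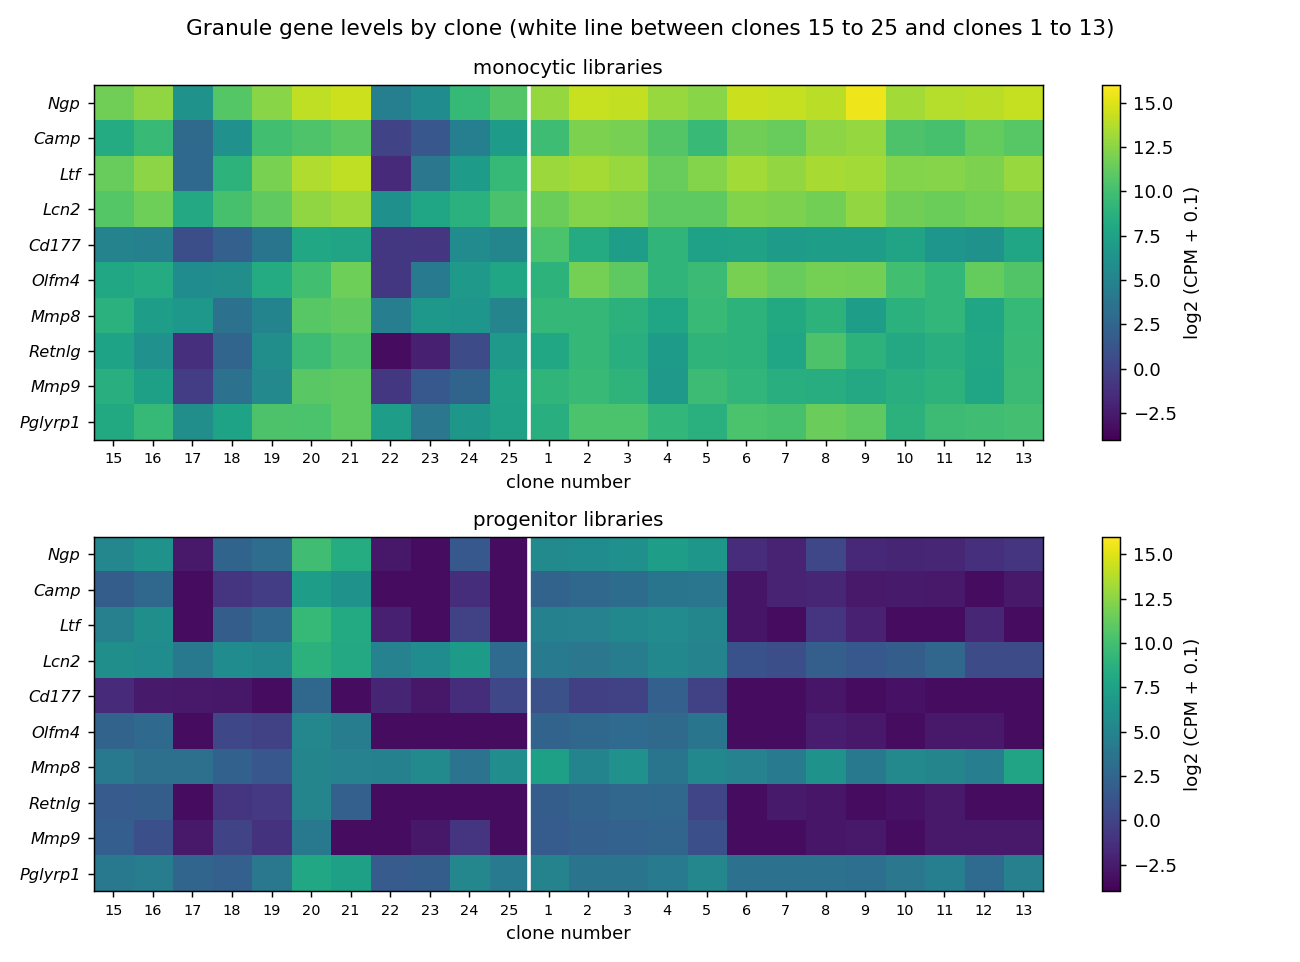
Rows are granule genes and columns are clones, 15 to 25 left of the white line and 1 to 13 right of it. Colour is log2 of CPM plus 0.1, for monocytic libraries above and progenitor libraries below. In the monocytic libraries clones 17, 22 and 23 are dark for most genes, and in the progenitors clones 1 to 5, 15, 16, 20 and 21 are bright for Ngp, Camp and Ltf while Mmp8 follows another order.

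Across monocytic libraries the members varied together. All 45 pairs of members were positively correlated and passed the permutation test (100000 permutations, adjusted over 116085 relations of a member with any gene), where 14.4% of those relations passed as positive. With values centred on the clone set 36 pairs passed, and by Spearman rank 44. Within the 21 clones with high Ngp, Ngp followed Lcn2 with r = 0.95 and rho = 0.95, and Camp with r = 0.96 and rho = 0.9 (permutation p 1e-05 for each, the smallest that the permutations can give). Ngp followed Ltf there with r = 0.91 (permutation p 1e-05) and rho = 0.83 (permutation p 2e-05). Looser relations in the same 21 clones were those of Ngp with Mmp8 (r = 0.61, permutation p 0.0037, and rho = 0.51, permutation p 0.0198) and with Cd177 (r = 0.54, permutation p 0.0109, and rho = 0.54, permutation p 0.0132).

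Fewer pairs passed within clones 1 to 13. There 10 of 45 passed, where 2.5% of all relations passed as positive, and 30 of 45 had a positive r. Of these 10 pairs, 9 joined Ngp, Camp, Lcn2, Olfm4 and Pglyrp1, and the tenth joined Mmp8 and Mmp9. No pair with Ltf, Retnlg or Cd177 passed there. Camp and Pglyrp1 had r = 0.94 (permutation p 1e-05, adjusted 0.0066) and rho = 0.96 (permutation p 1e-05), and r = 0.91 without the 2 clones farthest from the median of Camp. Mmp8 and Mmp9 had r = 0.82 (permutation p 0.0007, adjusted 0.0286) and rho = 0.87 (permutation p 0.0002), and r = 0.87 without the 2 clones farthest in Mmp8.

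Ngp was not related at the threshold to Mmp8, Mmp9 or Cd177 there. It had r = -0.42 with Mmp8 (permutation p 0.157, rho = -0.25, permutation p 0.413), r = 0.01 with Mmp9 (permutation p 0.985, rho = 0.07, permutation p 0.819) and r = -0.45 with Cd177 (permutation p 0.125, rho = -0.18, permutation p 0.552) in these 13 clones. These values rest on a few clones. Without the 2 clones farthest from the median of Ngp, r was 0.18 with Mmp8, 0.52 with Mmp9 and -0.64 with Cd177 (permutation p 0.594, 0.0884 and 0.031). In clones 15 to 25, 34 of 45 pairs passed, where 6.86% of all relations passed as positive, and all 45 were positive (r 0.45 to 0.99). There the Ngp to Cd177 relation had r = 0.9 (permutation p 0.00028) and rho = 0.73 (permutation p 0.0142). These libraries are shallow and include the 3 low clones. The difference between the sets in these correlations was not tested.

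**Figure D4:**
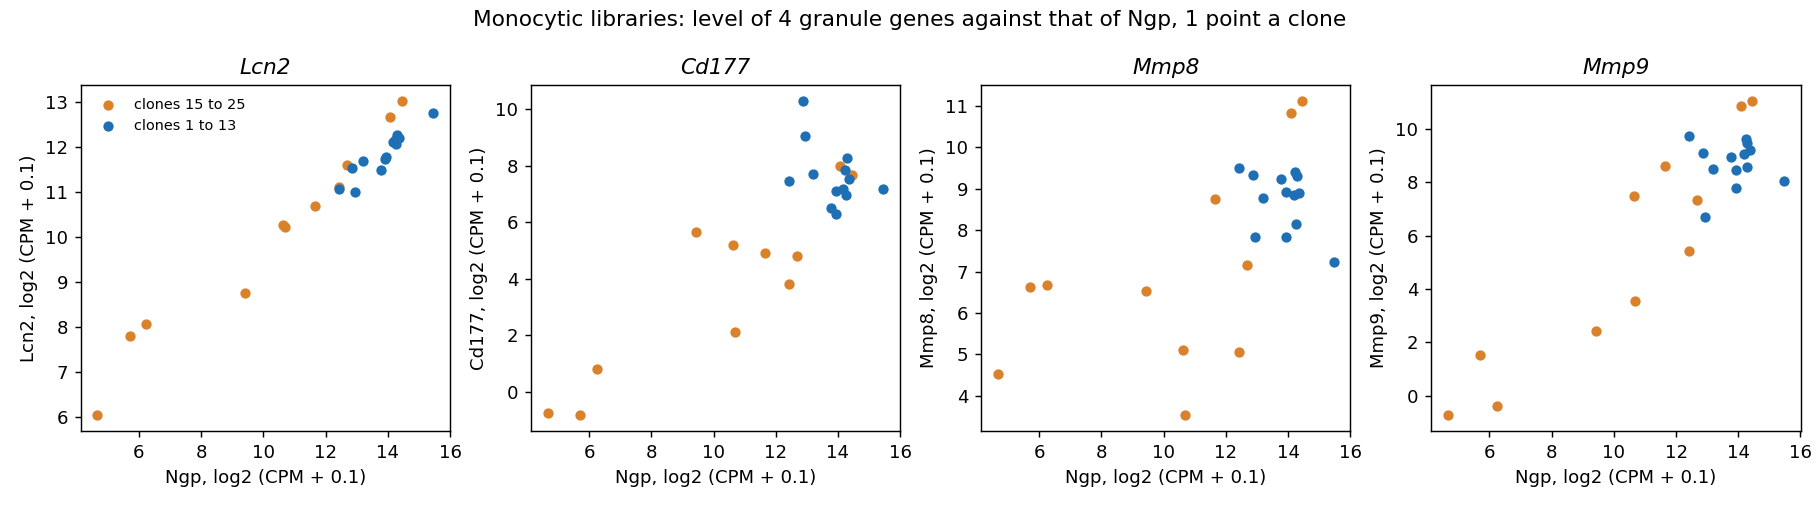
Each panel plots a granule gene (vertical) against Ngp (horizontal) in monocytic libraries, both as log2 of CPM plus 0.1, with 1 point a clone (orange, clones 15 to 25; blue, clones 1 to 13). Lcn2 follows Ngp in both sets, whereas among the blue clones Mmp8, Mmp9 and Cd177 do not rise with Ngp (r of -0.42, 0.01 and -0.45, values that rest on a few clones).

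In progenitors 25 of 45 pairs passed, all positive, where 1.59% of relations passed as positive. None of the 25 involved Mmp8, whose r with the other 9 members ran from -0.3 to 0.23. Levels there are low and the high and low clusters above carry much of the spread, so no pooled r is given for Ngp, Camp or Olfm4. Within the 15 clones with low progenitor Ngp, Ngp followed Ltf with r = 0.94 (permutation p 1e-05) and rho = 0.78 (permutation p 0.00108). That r leans on clones 18 and 19, with Ngp at 5.47 and 8.87 CPM and Ltf at 3.58 and 6.97 CPM. Most of the other clones had few counts of both genes. Ngp and Lcn2 had r = 0.4 (permutation p 0.141) and rho = -0.01 (permutation p 0.988) in the same 15 clones. The count of 25 was 15 by Spearman rank, 22 centred on the clone set, 3 in clones 1 to 13 alone, and 10 in clones 15 to 25 alone.

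The relation of a clone's progenitor level to its monocytic level did not pass the threshold for any member. None of the 10 passed over 24 clones by the permutation test, where 8.3% of 11614 genes did, and 2 of 10, Mmp8 and Pglyrp1, had an unadjusted p under 0.05. Mmp8 came nearest, with r = 0.56 (permutation p 0.0043, adjusted 0.051) and rho = 0.57 (permutation p 0.00372, adjusted 0.0725). Without the 2 clones farthest from its median r was 0.48 (permutation p 0.0242), and within the sets r was 0.42 in clones 15 to 25 (permutation p 0.203) and 0.7 in clones 1 to 13 (permutation p 0.00848).

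Pglyrp1 had r = 0.41 over all clones (permutation p 0.0447, adjusted 0.191) and rho = 0.19 (permutation p 0.382), and without its 2 farthest clones r was 0.33 (permutation p 0.138). That relation did not hold within the sets in 1 direction. Clones 15 to 25 gave r = 0.71 (permutation p 0.0145), whereas clones 1 to 13 gave r = -0.67 (permutation p 0.0129). Lcn2 turned likewise, with r = 0.55 in clones 15 to 25 (permutation p 0.0837) and -0.58 in clones 1 to 13 (permutation p 0.0375), and the difference between the sets was not tested. For Ngp, Camp, Ltf, Olfm4 and Retnlg, whose levels form clusters, r was 0.71 to 0.87 in clones 15 to 25, which include the 3 clones with low monocytic Ngp, and -0.53 to -0.2 in clones 1 to 13. None of these passed (adjusted p in clones 15 to 25 of 0.0621 to 0.162, where 0.474% of genes passed).

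The genes whose levels were most like those of the members over 24 clones were ranked in each state. In monocytic libraries the 6 highest were the cystatins Stfa3, Stfa2, BC100530 and Stfa2l1, near-identical copies whose counts are uncertain, the histone deiminase Padi4, and Ankrd22. Their median r to the 10 members was 0.93 to 0.95 over all clones and 0.92 to 0.95 within clones 15 to 25. Within clones 1 to 13 it was lower, at 0.54 to 0.7 for the cystatins, 0.33 for Padi4 and 0.27 for Ankrd22. In progenitors the 6 highest were S100a9 and S100a8 (median r 0.83 each), Sorl1 (0.75), the monocyte antigen Ly6c2 (0.74), Elane (0.71) and Mxd1 (0.71). These genes were ranked by that r, which is a description and no test.

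In primary cells class 4 had the highest median of every member but Cd177, which was highest in class 2. Set beside the clones, with no test because culture and sort differ, class 4 had 18500 and 24500 CPM of Ngp, above the median of monocytic clones (8610). Classes 2 and 1 had 51.9 to 297 CPM of it, above the progenitor median (1.94). Lcn2, Pglyrp1 and Olfm4 in class 4 were instead below the median of monocytic clones. Lcn2 had 1340 and 1750 CPM in class 4 against that median of 3030 CPM, and Pglyrp1 had 434 and 635 CPM against 761 CPM. Olfm4 had at most 43.6 CPM in any primary library against a median of 706 CPM in monocytic clones. It had 0 counts in nonclassical, intermediate and class 1 libraries. A count of 0 allows 0.133 to 0.138 CPM in these groups (3 counts per library, counting error only).

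Nonclassical, intermediate and classical monocytes were compared in 1 fit of 6 libraries. Pglyrp1 was at 313 and 554 CPM in nonclassical and 243 and 272 CPM in intermediate monocytes, against 46.8 and 49.7 CPM in classical monocytes. Neither group overlapped classical monocytes, and the log2 differences were 3.21 (SE 0.289, adjusted p 0.0119) for nonclassical over classical and 2.44 (SE 0.28, adjusted p 0.0323) for intermediate over classical, by edgeR. Pglyrp1 was the single member to pass in each, where 5.82% of 13944 genes passed in the first comparison and 2.11% in the second. Leaving out either classical library ended both calls (adjusted p 0.15 and 0.156 for the first, 0.301 and 0.377 for the second), and leaving out either intermediate library ended the second (0.117 and 0.123). Without a classical library 0 genes passed in any of these comparisons, so no call could stand there. The log2 difference stayed at 2.82 to 3.5 for the first and 2.34 to 2.53 for the second.

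Mmp8 was at 5.47 and 30.8 CPM in nonclassical and 33.5 and 69.3 CPM in intermediate monocytes, against 403 and 344 CPM in classical monocytes. Cd177 was at 65.1 and 2.26 CPM in nonclassical and 92.3 and 54.5 CPM in intermediate monocytes, against 555 and 425 CPM in classical monocytes. Both were lower outside the classical libraries without overlap, but neither passed: Mmp8 differed by -4.35 for nonclassical over classical (adjusted p 0.0646) and Cd177 by -3.74 (adjusted p 0.224). DESeq2 called both, at adjusted p 1.1e-06 and 0.0488, where it called 24.1% of genes.

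Ngp was at 772 and 125 CPM in nonclassical and 2220 and 1900 CPM in intermediate monocytes, against 120 and 330 CPM in classical monocytes. Retnlg was at 3.07 and 9.28 CPM in nonclassical and 70.7 and 198 CPM in intermediate monocytes, against 4.55 and 3 CPM in classical monocytes. Intermediate libraries were the highest of these 3 groups for both, yet the differences of 3.23 (Ngp, adjusted p 0.165) and 5.17 (Retnlg, adjusted p 0.0573) for intermediate over classical did not pass. DESeq2 called these 2, at adjusted p 0.00893 and 2.79e-10, where it called 22.3% of genes. For nonclassical over intermediate 0 members passed by edgeR, where 0% of genes did, and 3 of the 10 had an unadjusted p under 0.05. DESeq2 called 3 members there, Camp, Lcn2 and Retnlg, where it called 8.69% of genes. The summed neutrophil markers were 273 to 620 CPM in nonclassical and 1910 to 2420 CPM in intermediate monocytes, against 626 to 728 CPM in classical monocytes. Basophil and mast cell markers were 1720 to 6720 CPM in nonclassical and 4060 to 8610 CPM in intermediate monocytes, against 7.45 to 17 CPM in classical monocytes, and B cell markers were 1610 to 1890, 351 to 409 and 29.6 to 30.7 CPM in the same order. Their part in these differences was not tested.

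Class 4 stood above class 1 for 9 of 10 members, where 25.1% of 13686 genes passed in either direction and 10.2% were higher. Ngp had 18500 and 24500 CPM in class 4, against 51.9 and 297 CPM in class 1, a log2 difference of 6.96 (SE 0.933, adjusted p 0.00182). Retnlg had 1800 and 3050 CPM in class 4, against 13.1 and 5.41 CPM in class 1, a difference of 8.06 (SE 0.992, adjusted p 0.00125). Olfm4 had 13.9 and 43.6 CPM in class 4. Their mean was at least 216-fold higher than class 1, where both libraries had no counts (bound at 3 counts per library). None of these groups overlap.

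Camp (6.8), Ltf (6.4), Lcn2 (5.31), Pglyrp1 (3.86), Mmp8 (1.88) and Cd177 (0.91) also passed for class 4 over class 1. Mmp9 did not: it had 550 and 530 CPM in class 4, against 12.1 and 266 CPM in class 1, whose libraries differ widely (difference 1.97, adjusted p 0.3 by edgeR). The Cd177 call was lost without either class 1 library (adjusted p 0.0732 and 0.0995), and the other 8 calls stood in each of the 8 fits that left out 1 library.

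Class 4 libraries also carried other cells' markers. Ly6g was 17.2 to 26.5 CPM in class 4, against 0.133 to 0.25 CPM in class 1. The summed neutrophil markers were 19500 to 28900 CPM in class 4, against 437 to 605 CPM in class 1, and erythroid markers were 3150 to 4020 CPM, against 40.5 to 95.3 CPM. B cell markers were 1850 to 2250 CPM in class 4, against 311 to 341 CPM in class 1, and monocyte markers were 3830 to 4000 CPM, against 13100 to 13400 CPM. Basophil and mast cell markers were 898 to 1940 CPM in class 4, against 4.97 to 11.2 CPM in class 1, and eosinophil markers 387 to 1120 CPM, against 11.1 to 12.9 CPM. Their part in the members' levels was not tested.

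Ngp had 4320 and 2290 CPM in class 3, against 56.1 and 127 CPM in class 2 and 51.9 and 297 CPM in class 1. For class 3 over class 1, 6 of 10 members passed, all higher, where 13.4% of genes passed. They were Ngp (4.22, adjusted p 0.0134), Camp (4.32), Ltf (4.28), Lcn2 (3.22), Pglyrp1 (1.01) and Olfm4. The mean of Olfm4 in class 3 was at least 53.7-fold higher than class 1. Retnlg had 13.7 and 2.1 CPM in class 3, against 13.1 and 5.41 CPM in class 1, and Mmp9 had 34.1 and 5.23 CPM in class 3, against 12.1 and 266 CPM in class 1. Neither passed (adjusted p 0.898 and 0.221), nor did Cd177 (-0.24, adjusted p 0.538) and Mmp8 (-0.51, adjusted p 0.123). The Lcn2 call alone stood in all 8 fits that left out 1 library. Without class 3 replicate 1 the adjusted p was 0.0565 for Ngp, 0.0866 for Camp and 0.118 for Ltf, without class 3 replicate 2 it was 0.073 for Camp and 0.083 for Ltf, and Olfm4 lost its call without any class 3 or class 1 library (0.0588 to 0.121). The Pglyrp1 call was lost without class 3 replicate 1 or any class 2 or class 1 library (0.0527 to 0.183). Class 3 had basophil and mast cell markers of 365 to 879 CPM, against 4.97 to 11.2 CPM in class 1, with 4 of 5 higher. It had monocyte markers of 12700 to 12800 CPM, with 1 of 8 higher than class 1 and 4 lower. Neutrophil markers were 2550 to 3470 CPM, with 4 of 9 tested higher than class 1 and 2 lower. Ly6g was at 1.51 to 3.39 CPM in class 3, and the part of these markers was not tested.

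Class 4 exceeded class 3 for 7 of 10 members, where 28.6% of genes passed. Retnlg had 1800 and 3050 CPM in class 4, against 13.7 and 2.1 CPM in class 3, a log2 difference of 8.3 (SE 1, adjusted p 0.00113), the largest of the 10. Mmp9 (4.81, adjusted p 0.0421), Pglyrp1 (2.85), Ngp (2.74), Mmp8 (2.4), Lcn2 (2.08) and Cd177 (1.15) passed, whereas Camp (2.48, adjusted p 0.0698), Ltf (2.12, adjusted p 0.129) and Olfm4 (2.05, adjusted p 0.204) did not. The Mmp9 call was lost without any class 2 or class 3 library (adjusted p 0.0567 to 0.2) and the Ngp call without either class 3 library or class 4 replicate 2 (0.0512 to 0.188).

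Class 2 had the highest Cd177 of all groups. It was at 1030 and 994 CPM in class 2, against 463 and 419 CPM in class 1, a log2 difference of 1.22 (SE 0.212, adjusted p 0.0108). Pglyrp1 had 135 and 145 CPM in class 2, against 40.9 and 34 CPM in class 1, a difference of 1.92 (SE 0.247, adjusted p 0.00244). These 2 were the only members to pass for class 2 over class 1, where 9.29% of genes passed by edgeR. The Cd177 call was lost without either class 1 library or class 2 replicate 1 (adjusted p 0.0573 to 0.0966).

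For class 3 over class 2, 7 of 10 members passed, where 24.2% of genes did. Ngp (5.15), Camp (5.45), Ltf (4.68) and Lcn2 (3.48) were higher and Cd177 (-1.46), Mmp8 (-1.2) and Pglyrp1 (-0.91) lower. Mmp8 was at 236 and 180 CPM in class 3, against 471 and 466 CPM in class 2, without overlap. Leaving out 1 library ended the Camp call (class 2 replicate 1, adjusted p 0.0635), the Ltf call (either class 2 library or class 3 replicate 1, 0.0501 to 0.11) and the Pglyrp1 call (either class 2 library or class 3 replicate 2, 0.0745 to 0.171). For class 4 over class 2, 9 of 10 passed, where 40.9% of genes did, all higher (Mmp9 not without either class 2 library, adjusted p 0.0772 and 0.156). Cd177 did not pass there (-0.3, adjusted p 0.28), at 778 and 859 CPM in class 4 and 1030 and 994 CPM in class 2.

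In order of level, Ngp ran from class 4 through class 3 and intermediate monocytes to nonclassical, classical, class 1 and class 2 libraries, and neighbours among the last 4 groups overlap. Camp and Ltf kept that order, with class 3 and intermediate libraries overlapping for Ltf. Cd177 ran from class 2 through class 4, classical, class 1, class 3 and intermediate to nonclassical libraries, with classical, class 1 and class 3 overlapping, and intermediate and nonclassical too. For class 4 over class 1, 9 of 10 primary granule genes were higher and 1 lower (median 2.88). Of 29 tested genes of the broader granule list 12 were higher and 8 lower (median 0.15). Among all 13686 genes 1394 were higher and 2048 lower.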

How the data were processed

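Raw read counts per gene were deposited by the authors as 1 table of 37620 genes over 62 libraries of bulk mouse RNA. The tools named in the submitters' processing notes are the aligner STAR (2.7.3a) and the counter HTSeq (version 0.6.0), with mm9 as genome build. Strand is not given in the sources used here. 1 column without a matching sample was not used. Libraries were grouped by their labels, and clones were paired by clone number, which the design text states. No batch is named, so clones 15 to 25 and 1 to 13 are called sets only by their numbers and depth.

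Counts were tested with edgeR 4.0.16 (TMM, quasi-likelihood F test, filterByExpr with a minimum count of 10, Benjamini-Hochberg over all genes tested, threshold 0.05; R 4.3.3, limma 3.58.1). The state was fitted with the clone as a block. Subsets and classes had a fit each, without a block. Correlations used log2 CPM (prior count 2) with 100000 permutations (numpy 2.4.6, scipy 1.17.1), adjusted over all relations. A zero was bounded at 3 counts per library, which covers counting error only. The fits and correlations were tested on simulated data. Alternatives were DESeq2 1.42.0, other filters, scalings and priors, ranks, sets alone, clone 21 left out, all primary libraries together, and each primary replicate left out in turn.

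The members and gene lists were chosen with earlier results of these data known. The text names all 10 members, up to 4 called genes of each list with the largest change between the states and the most expressed one that did not pass, and the 6 genes of each state with the highest median r to the members (mean log2 CPM of at least 3, predicted genes skipped). Coordinates and exon lengths come from GENCODE M21 (GRCm38) and promoters from RefSeq (GRCm38.p6), not from the authors' build.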

Additional observations from a re-analysis of the deposited data

Results flagged for a closer look

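The change between the monocytic and the progenitor state was smaller in clones 15 to 25 than in clones 1 to 13 for 8 genes, by a test of the difference itself (edgeR, adjusted over all genes, 11 and 13 clones). The log2 difference was -5.64 for Ltf (adjusted p 0.0219), -5.29 for Ngp (0.0339), -5.01 for Lcn2 (0.000194) and -4.84 for Camp (0.0209). It was -4.4 for Olfm4 (adjusted p 0.0371), -3.82 for Retnlg (0.0345), -3.44 for Cd177 (0.00957) and -2.06 for Pglyrp1 (0.0191). Monocytic libraries held 1.83 to 9.12 M counts in clones 15 to 25 and 22.9 to 34.5 M in clones 1 to 13, and the part of depth in the difference was not tested.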

How the results depend on the processing

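All 10 members rose between the states under each alternative tried, without the replicate block too, except that in clones 15 to 25 alone 9 were tested (Cd177 was not) and all 9 rose. The count of 8 differing between clone sets was 8 or 9. The clone effect, 6 members, was 0 in clones 1 to 13 alone. For the subsets, 2 calls became 4 with no filter, 9 with all 14 primary libraries and 14 with DESeq2, and ran from 0 to 3 on leaving out 1 library. Over all genes these comparisons called 2.64%, then 1.88%, 12.5% and 18.4% with the same 3 settings. For the classes, 40 calls became 24 with all 14 primary libraries and ran from 33 to 42 on leaving out 1 library. Classes 1 to 3 alone, chosen after seeing the data, gave 17 calls against 15. With the replicate number as a block the calls were 3 for subsets and 40 for classes. Same-numbered libraries deviated together with correlations of 0.18 to 0.38 among subsets and -0.01 to 0.07 among classes, and with 2 numbers a group they were not taken as pairs. Pairs of members correlated in progenitors, 25, were 15 by rank, 3 in clones 1 to 13 and 10 in clones 15 to 25. In monocytic libraries, 45 became 10 in clones 1 to 13.

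These changes of sign were all in values that did not pass the threshold, and their cause was not tested. Nonclassical over classical turned to -0.85 (Ngp), -1.5 (Camp) and -1.79 (Ltf) without nonclassical replicate 1, to 0.29 (Lcn2) and -0.18 (Retnlg) without nonclassical replicate 2, and for Camp to -0.34 without classical replicate 1 and -0.09 with the replicate block. The other end of the range on leaving out 1 library was 1.99 (Ngp), 0.98 (Camp), 1.9 (Ltf), -1.59 (Lcn2) and 1.27 (Retnlg). Class 2 over class 1 turned to 0.84 (Ngp), 1.43 (Camp), 2.24 (Ltf), 0.06 (Lcn2) and 0.45 (Mmp9) without class 1 replicate 2, and to 0.19 (Ltf) without class 2 replicate 1, with other ends at -1.69 (Ngp), -2.0 (Camp), -1.38 (Ltf), -0.51 (Lcn2) and -4.53 (Mmp9). Class 3 over class 1 turned to 0.07 (Cd177) and 0.57 (Retnlg) without class 3 replicate 2, 0.51 (Retnlg) without class 1 replicate 1 and 0.67 (Mmp9) without class 1 replicate 2, with other ends at -0.62 (Cd177), -2.16 (Retnlg) and -4.76 (Mmp9). Class 3 over class 2 turned for Mmp9 to -0.52 without class 2 replicate 1 and -1.68 without class 3 replicate 1, with the other end at 1.68. The r of progenitor with monocytic level turned in clones 1 to 13 to -0.53 (Ngp), -0.31 (Camp), -0.2 (Ltf), -0.38 (Olfm4), -0.28 (Retnlg) and -0.67 (Pglyrp1), and for Lcn2 to 0.25 centred on the set and 0.55 in clones 15 to 25. Depth limits low levels most in the progenitor library of clone 21, where a count of 0 allows 6.28 CPM.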
